A study of Homo sapiens with 3 samples.

Results

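The GNAS imprinted locus was described here as the CpGs of chromosome 20 from 57400000 to 57490000 (GRCh37) that had at least 10 reads in all 3 libraries, with the reads of both strands summed. Of 894 CpGs of this interval seen in any library, 691 met that minimum, out of 2238764 in the whole series. The sub-regions were set by position and not by their methylation: the NESP55 promoter from 57414000 to 57418700 (181 CpGs), the antisense and XL promoters from 57425600 to 57430500 (243 CpGs), exon A/B from 57463200 to 57465300 (55 CpGs) and the GNAS promoter from 57465300 to 57468000 (81 CpGs). The other 131 CpGs lay between or outside them. Positions name the forward-strand C of a CpG.

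Methylation was measured in Hep3B, a human hepatocellular carcinoma cell line. The study compared parental cells (1 library) with SOX4 knockout cells of lines #1 and #2 (1 library each), called line 1 and line 2 here, as part of its work on how the transcription factor SOX4 regulates the gene STAT6. The lines came from CRISPR/Cas9 editing in earlier work and were kept in medium with puromycin, and whether each is a single clone is not given in the sources used here. The edit at SOX4 was not checked here. Over this locus the median depth per CpG was 33 reads (parental), 29 (line 1) and 44 (line 2). The reverse strand held 97.4% to 98.0% of the read counts of the locus, against 86.7% to 87.0% over all CpGs, so the levels below are nearly all levels of a single strand.

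GNAS encodes the alpha subunit of the stimulatory G protein, which couples hormone receptors to adenylyl cyclase. The locus has several promoters that splice onto shared exons. In normal tissue the promoter of the secretory protein NESP55 is methylated on the paternal allele, whereas the promoters of the antisense transcript GNAS-AS1, of the large variant XL alpha s and of the untranslated exon A/B are methylated on the maternal allele. The main GNAS promoter is unmethylated on both alleles. Loss of maternal methylation at exon A/B is known from pseudohypoparathyroidism type 1B. Bisulfite reads of pooled alleles give an intermediate level where a single allele is methylated, and alleles were not told apart in these files.

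Sequences are shown first for 4 of the 6 GNAS start windows in the RefSeq table (250 bases before to 50 bases after a start, forward strand, GRCh38.p14), because they span the high, the low and the changed CpGs described below. Window 1 is chr20:58839498-58839797, window 2 chr20:58841370-58841669, window 4 chr20:58852731-58853030 and window 5 chr20:58888163-58888462. No coordinate was carried over between builds. Each window was instead placed on the CpGs of the files by the spacing of its CG letters along chromosome 20. All 21 CGs of window 1, 34 of 34 in window 2, 17 of 18 in window 4 and 10 of 10 in window 5 fell on a CpG of the files at a single placement, against 11, 13, 9 and 7 at the next best one. Capitals mark the CGs with at least 10 reads in all 3 libraries.
Start window 1: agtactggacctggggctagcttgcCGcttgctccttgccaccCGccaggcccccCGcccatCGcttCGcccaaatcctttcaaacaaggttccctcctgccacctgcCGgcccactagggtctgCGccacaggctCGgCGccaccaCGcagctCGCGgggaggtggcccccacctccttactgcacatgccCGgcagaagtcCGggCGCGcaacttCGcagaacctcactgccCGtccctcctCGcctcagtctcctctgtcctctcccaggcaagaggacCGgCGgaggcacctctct
Start window 2: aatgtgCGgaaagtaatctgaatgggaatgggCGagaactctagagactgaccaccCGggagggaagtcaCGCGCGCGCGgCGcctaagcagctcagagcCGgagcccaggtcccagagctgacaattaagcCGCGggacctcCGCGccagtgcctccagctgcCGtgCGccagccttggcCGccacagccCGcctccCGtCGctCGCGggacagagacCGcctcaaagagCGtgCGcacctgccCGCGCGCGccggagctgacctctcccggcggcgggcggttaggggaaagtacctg
Start window 4: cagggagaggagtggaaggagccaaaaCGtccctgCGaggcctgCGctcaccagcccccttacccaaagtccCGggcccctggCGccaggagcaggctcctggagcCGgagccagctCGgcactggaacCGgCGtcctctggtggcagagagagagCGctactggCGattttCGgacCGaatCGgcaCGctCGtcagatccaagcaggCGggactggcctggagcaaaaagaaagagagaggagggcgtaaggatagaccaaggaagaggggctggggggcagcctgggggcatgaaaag
Start window 5: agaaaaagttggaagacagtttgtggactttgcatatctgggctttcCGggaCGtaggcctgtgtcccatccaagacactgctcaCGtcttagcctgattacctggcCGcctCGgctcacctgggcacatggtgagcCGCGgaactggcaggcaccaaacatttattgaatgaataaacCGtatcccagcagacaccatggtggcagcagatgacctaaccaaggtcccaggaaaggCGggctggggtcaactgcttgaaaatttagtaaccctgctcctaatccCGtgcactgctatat

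Windows 1 and 2 fell in the NESP55 sub-region. The 21 CpGs of window 1 averaged 57.6% in parental cells, 49.0% in line 1 and 56.2% in line 2. Its CG at base 210, CpG 57414762, fell in line 1 (84.6%, 50% and 80.4%, adjusted p of 0.0190 by the Fisher exact test described below). In window 2, the levels of the 29 compared CpGs averaged 76.2%, 76.8% and 73.8% in the same order, and the run of CGs at bases 71 to 79 lay between 85.7% and 100% in every library. Its CG at base 169, CpG 57416593, rose in line 1 (67.9%, 100% and 92.1%, adjusted p of 0.00376). By contrast, the 17 CpGs of window 4, in the antisense and XL sub-region, averaged 0.930% in line 1 and 0.684% in line 2, and the 16 of them from 57427813 to 57427977 averaged 1.59% in parental cells. The 16 CpGs of window 3 (not printed), also in that sub-region, averaged 9.59% in parental cells, 9.13% in line 1 and 12.1% in line 2. Window 5 held the first 10 compared CpGs of exon A/B, with mean levels of 52.5%, 41.1% and 52.3%. Its CGs at bases 48, 53 and 86 are the 3 CpGs of exon A/B that fell in line 1. Window 6 (not printed) was placed inside exon A/B from CpG 57463991 to 57464238, where 25 of its 43 CGs were seen and none had enough reads in all 3 libraries. Its levels are not given, since line 1 had at most 3 reads at any of those CpGs and neighbouring CpGs share reads. The letters TGCCGC or GCGGCA, the hexamer bound by the imprinting factor ZFP57 when methylated, occurred once in window 1 and in none of the other 5 windows. They occurred in 16.7% of the 35116 start windows of the table.

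The locus alternated between methylated and nearly unmethylated stretches, and their order was the same in all 3 libraries. Mean levels ran from 70.1% in the NESP55 sub-region to 7.82% at the GNAS promoter in parental cells. Over all 691 CpGs the mean was 47.2% in parental cells, 41.6% in line 1 and 44.0% in line 2, and the levels of individual CpGs spanned 0% to 100% in each. CpGs between 30% and 70% in all 3 libraries made up 17.8% of the locus, against 4.74% of all compared CpGs. NESP55 held 78 of these 123 CpGs (43.1% of its own), whereas the share was 11.5% in the antisense and XL sub-region, 5.45% at exon A/B and 0% at the GNAS promoter. By library, 31.4%, 32.3% and 34.6% of the locus lay between 30% and 70% in parental cells, line 1 and line 2. The shares were 24.5%, 20.9% and 20% in the 90 kb on the lower side and 9.68%, 3.23% and 14.5% on the upper side. Over all compared CpGs they were 12.2%, 12.0% and 13.0%. Levels correlated across the 691 CpGs with Pearson's r of 0.900 between line 1 and parental, 0.941 between line 2 and parental and 0.925 between the lines. This is a description across CpGs that share fragments, not across replicates.

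**Figure D1:**
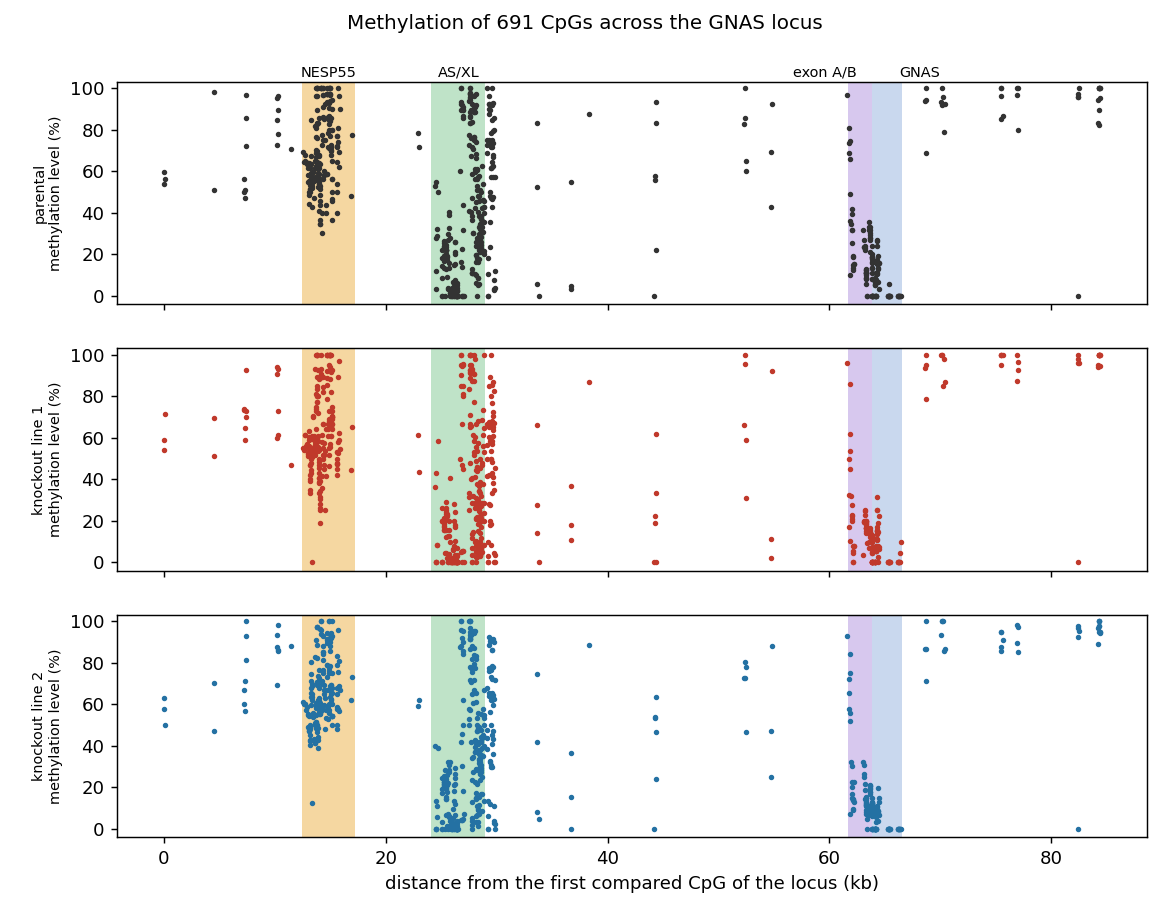
Methylation level (percent) of each of the 691 CpGs against distance from the first compared CpG of the locus (kb), with 1 panel per library and the 4 sub-regions shaded. NESP55 CpGs sit high and the GNAS promoter stays under 32% in all 3 panels, and the antisense and XL sub-region holds a low stretch followed by mixed levels.

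At the NESP55 promoter, which drives a neuroendocrine secretory protein, the 181 CpGs averaged 70.1% in parental cells, with the lowest at 30%, the median at 67.3% and the highest at 100%. In line 1 the mean was 63.8%, with CpGs from 0% to 100% and a median of 60%. Line 2 had a mean of 66.1%, with CpGs from 12.3% to 100% and a median of 62.2%. Most of these CpGs were intermediate: 101, 117 and 121 of 181 lay between 30% and 70% in the parental library, line 1 and line 2. The knockout mean was 65.0% ± 1.66 (SD, n = 2), a difference from parental of -5.12 percentage points. It was -6.29 points for line 1 alone and -3.94 points for line 2, and line 1 minus line 2 was -2.35 points. Both differences exceeded in size the gap between the lines. The same held over all compared CpGs, where line 1 differed from parental by -4.07 points and line 2 by -2.13 points. Line 1 minus line 2 was -1.94 points there. The parental group has no replicate, and with 1 library against 2 no test of group levels was run here or below. The level was not even within the sub-region. In parental cells it averaged 58.4% over the 36 CpGs of the 1 kb window that starts at 57414001, 69.7% over 77 CpGs in the next window and 78.7% over 51 CpGs in the one after. Line 1 showed 51.1%, 62.8% and 76.5% in these windows, and line 2 showed 56.0%, 66.0% and 73.1%. The 15 CpGs from 57417091 to 57417352 stood at 71.8% in parental cells, 57.2% in line 1 and 67.5% in line 2, so that line 1 was the low library there. The deepest CpG, 57414521, had 48 of 88 reads methylated in parental cells (54.5%, exact 95% interval 43.6% to 65.2%). In line 1 it had 44 of 84 (52.4%, 41.2% to 63.4%), and in line 2 60 of 108 (55.6%, 45.7% to 65.1%). At that CpG the 3 intervals overlapped almost entirely.

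The antisense and XL sub-region, from which GNAS-AS1 and the XL variant start, held both low and high stretches. Its 243 CpGs averaged 36.0% in parental cells, 30.9% in line 1 and 33.9% in line 2, with a knockout mean of 32.4% ± 2.10 (SD, n = 2) and a difference of -3.61 points. It is described in 2 parts, divided at the widest gap without a compared CpG (57428568 to 57429025). The lower part, with 114 CpGs, averaged 21.4% in parental cells, 19.4% in line 1 and 19.9% in line 2, and its median CpG was at 15.3%, 8.33% and 13.3%. Within it, the 85 CpGs from 57426538 to 57427994 averaged 11.6%, 9.74% and 11.4%. The next 21 CpGs, from 57428199 to 57428568, averaged 57.0%, 58.6% and 56.7%. Levels within these 21 CpGs were mixed: 57428330 was at 100% in all 3 libraries, while 57428386, 57428398 and 57428437, picked after their values were known, were at 5.56% or below in each. The 8 CpGs at the other end, from 57425994 to 57426215, averaged 32.8% in parental cells, 19.3% in line 1 and 13.6% in line 2. For the lower part as a whole the lines averaged 19.7% ± 0.344 (SD, n = 2), with a difference of -1.78 points. The deepest CpG, 57427341, had 40 of 144 reads methylated in parental cells (27.8%), 41 of 101 in line 1 (40.6%) and 54 of 168 in line 2 (32.1%). It was not called in either line (Fisher exact test, adjusted p of 0.333 and 1).

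The upper part, 129 CpGs from 57429025 to 57430411, averaged 48.8% in parental cells, 41.0% in line 1 and 46.2% in line 2. Over both lines the mean was 43.6% ± 3.65 (SD, n = 2). The difference from parental was -7.81 points for line 1 and -2.65 points for line 2. Line 1 minus line 2, at -5.16 points, was larger in size than the difference of line 2 from parental. Levels were uneven over short distances. In bins of 200 bases from the first CpG, parental levels were 84.3%, 51.7%, 71.7%, 36.6%, 26.6%, 34.3% and 38.7%. Line 1 gave 75.3%, 45.4%, 55.2%, 26.7%, 21.7%, 23.4% and 47.9% in the same bins. Line 2 gave 80.8%, 46.4%, 65.3%, 30.7%, 26.0%, 33.2% and 46.9%. The pattern of peaks and dips was shared, and line 1 was below the other libraries in the first 6 bins and above both in the last. Past the end of the sub-region, the 52 CpGs from 57430641 to 57431379 averaged 59.7%, 47.9% and 52.0%.

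**Figure D2:**
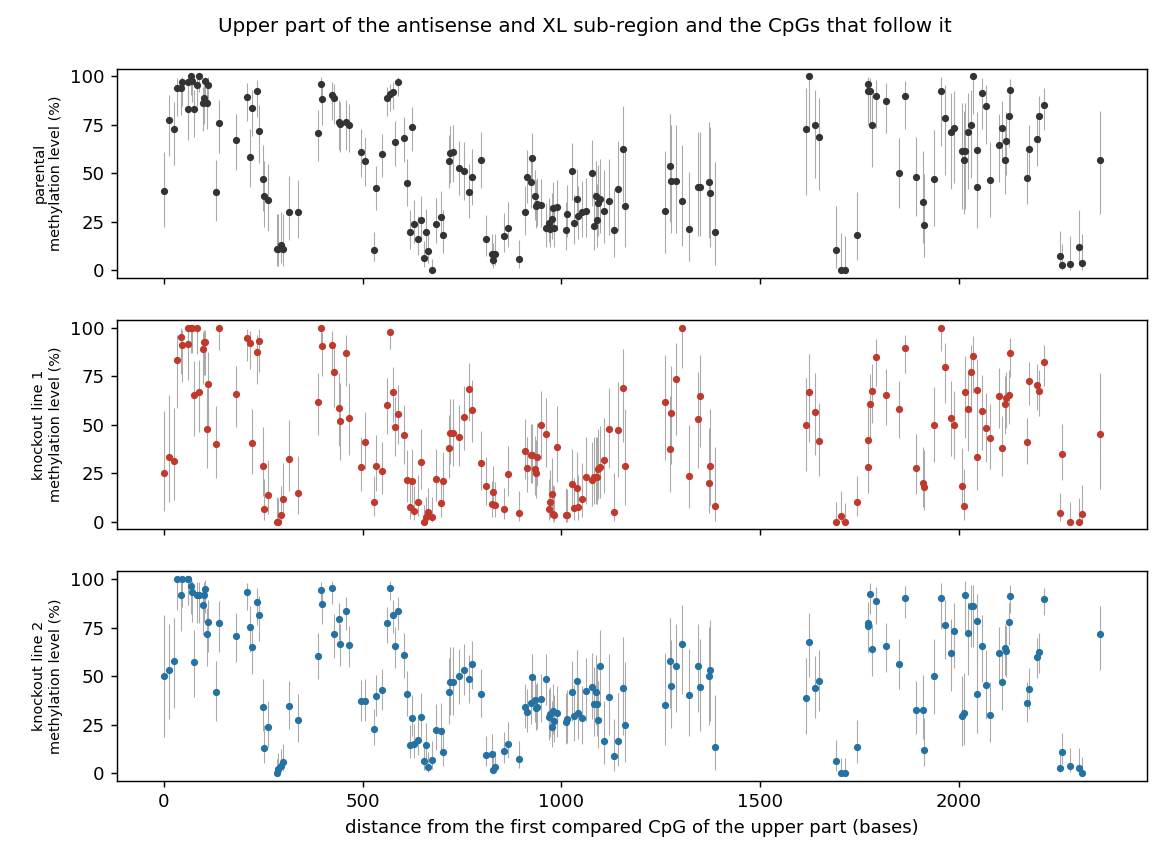
Methylation level (percent) with exact 95% intervals at each CpG of the upper part of the antisense and XL sub-region and of the 52 CpGs that follow it, against distance from the first CpG (bases), with 1 panel per library. High CpGs near the start give way to a lower stretch, from 57429628 to 57430184, where no 200-base bin averages above 36.6% in any library.

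Exon A/B, whose transcript comes from the paternal allele in normal tissue, was mostly low. Its 55 CpGs averaged 26.0% in parental cells, with a median of 23.5% and a highest CpG of 80.9%. The mean was 19.6% in line 1 (median 16.7%, highest 86.0%), and 22.3% in line 2 (median 15.3%, highest 84.5%). Over both lines it was 21.0% ± 1.91 (SD, n = 2), a difference of -4.98 points. That value rests on the ends of the sub-region, since it was -1.55 points over the 34 CpGs left when the ends were moved inward by 300 bases. The difference was -6.33 points for line 1 and -3.63 points for line 2, against -2.70 points for line 1 minus line 2. The first end of the exon was the high end in all 3 libraries. The first 9 CpGs, from 57463265 to 57463455, averaged 54.8% in parental cells, 43.2% in line 1 and 55.8% in line 2. The 18 CpGs from 57464680 to 57464852 averaged 11.2%, 18.3% and 11.9%, so that line 1 was above the other libraries there. The 11 CpGs from 57465091 to 57465200 averaged 29.9%, 13.3% and 16.5%. Of these 11 CpGs, the deepest of the exon is 57465175, with 21 of 78 reads methylated in parental cells (26.9%, 17.5% to 38.2%). In line 1 it had 11 of 76 (14.5%, 7.45% to 24.4%), and in line 2 18 of 92 (19.6%, 12.0% to 29.1%). Its intervals overlapped, and it was not called in either line. The first 9 CpGs follow a single compared CpG upstream of the sub-region, 57463106, which was at 96.9%, 96% and 93.0%.

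The GNAS promoter had the lowest levels of the locus. Its 81 CpGs averaged 7.82% in parental cells, with a highest CpG of 26.7%, 5.93% in line 1, with a highest CpG of 31.6%, and 4.96% in line 2, with a highest CpG of 19.6%. In the 3 libraries 33, 38 and 39 of these CpGs had no methylated read, and 24 had none in any library. The 11 CpGs from 57466808 to 57466932 averaged 0.505%, 0% and 0%, and the 39 CpGs from 57465599 to 57465975 averaged 10.6%, 9.11% and 5.95%. The low level at the end of exon A/B thus ran on into this promoter and came near 0 in its middle. The knockout mean was 5.44% ± 0.689 (SD, n = 2), a difference of -2.38 points, and line 1 alone gave -1.89 and line 2 -2.86 points. The deepest CpG, 57465304, had 8 of 50, 4 of 41 and 7 of 57 methylated reads in the same order. None of the 81 CpGs was called between any pair of libraries at this depth of 10 to 59 reads. A call, described below, needs levels 25 points or more apart. In parental cells 76 of the 81 CpGs were under 20%, so a fall from parental could not be called there at any depth. The lack of called falls therefore does not show a stable level. At an unadjusted Fisher p under 0.05 alone, 2 of the 81 were lower in line 1 and 1 in line 2 than in parental cells. Over all 2238764 compared CpGs, 238064 were lower in line 1 and 133699 in line 2 by the same rule.

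**Figure D3:**
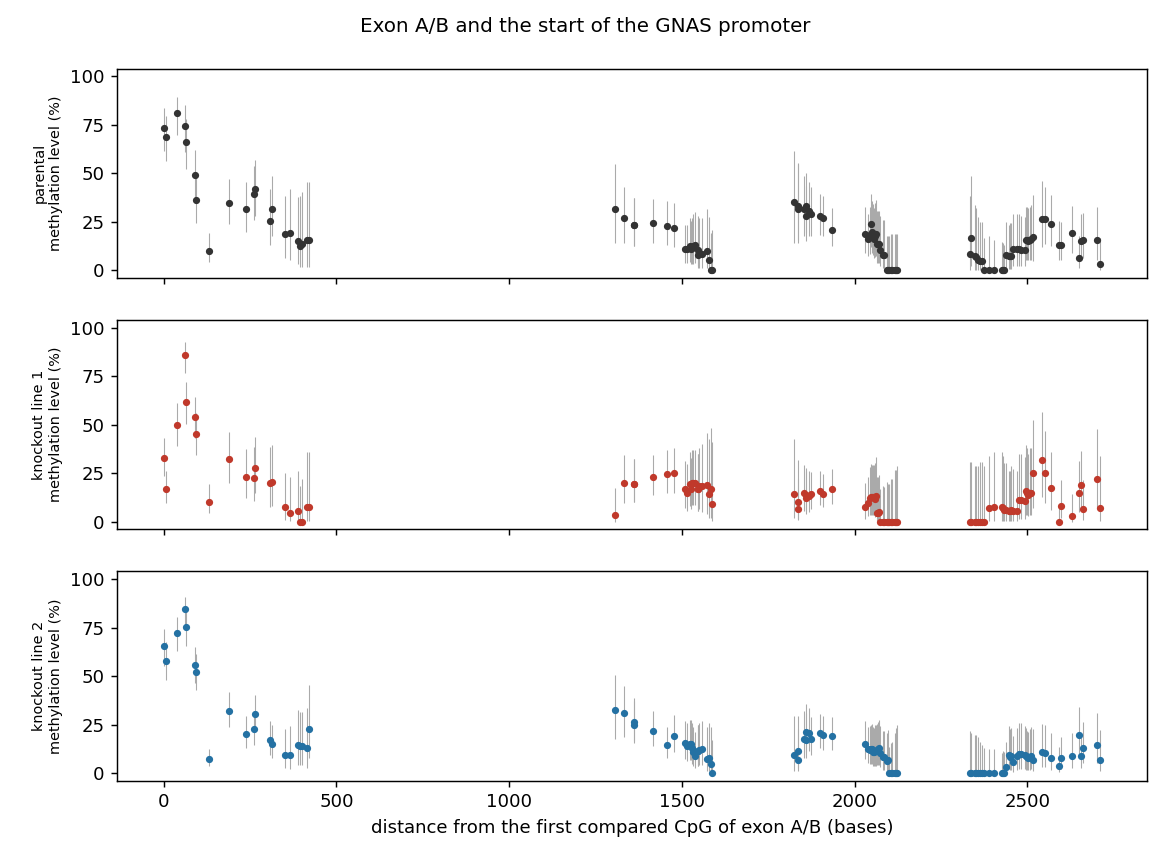
Methylation level (percent) with exact 95% intervals at the compared CpGs of exon A/B and the first part of the GNAS promoter, against distance from the first CpG of exon A/B (bases), with 1 panel per library. The first 3 CpGs are high in the parental library and line 2 and lower in line 1, and from 57464571 on no CpG shown is above 35.3% in any library.

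The CpGs outside the 4 sub-regions averaged 69.5% in parental cells, 62.3% in line 1 and 65.2% in line 2. Beyond the GNAS promoter levels were high, with 92.0%, 94.9% and 94.3% over 6 CpGs from 57471551 to 57471913, and with no CpG under 82.1%, 94.1% and 88.9% among the 11 CpGs from 57485698 to 57485872. Within 90 kb of the locus, the 110 CpGs on the lower side averaged 32.3%, 21.9% and 25.8%, and the 62 CpGs on the upper side averaged 84.8%, 79.8% and 81.9%.

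**Figure D4:**
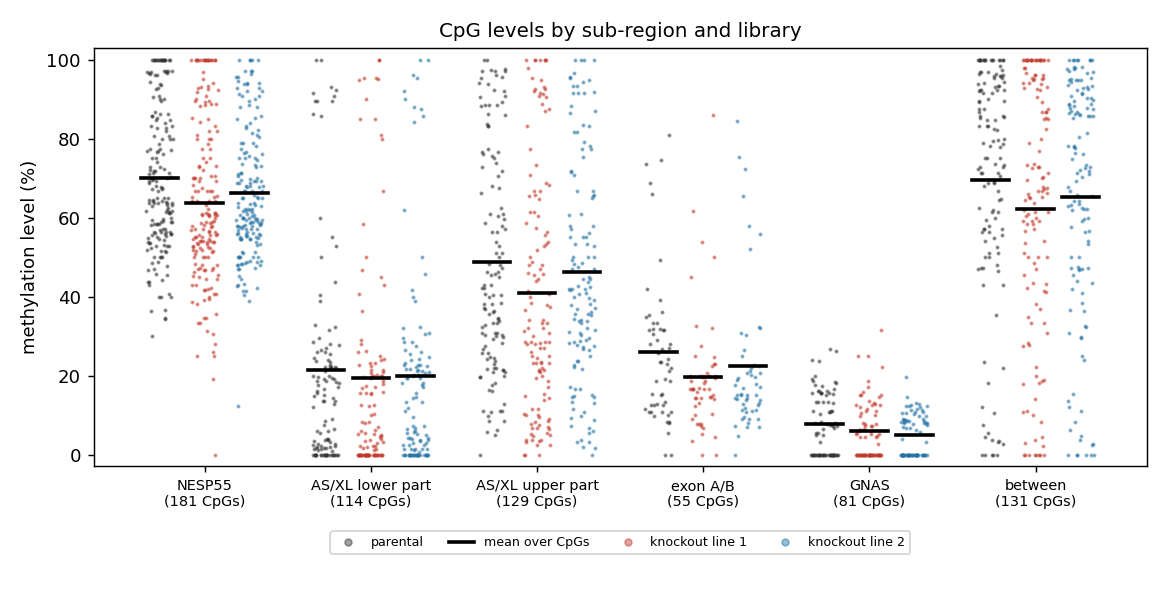
Methylation level (percent) of every compared CpG by sub-region, with points for CpGs, a colour per library and a black bar for the mean over CpGs. The means go from 70.1% at NESP55 to 7.82% at the GNAS promoter in parental cells, and the libraries of each sub-region overlap widely.

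Single CpGs were then compared between libraries by Fisher's exact test (2-sided) on the methylated and unmethylated counts. A CpG was called where the Benjamini-Hochberg adjusted p, over all 2238764 CpGs, was under 0.05 and the levels lay 25 points or more apart. Such tests compare libraries and not conditions. In line 1, 29 of the 691 CpGs of the locus fell (4.20%) and 4 rose (0.579%) against parental. Over all compared CpGs 4.46% were called lower and 0.599% higher, so the share at this locus was near the background. In line 2, 4 CpGs fell (0.579%) and 1 rose (0.145%), against a background of 0.713% lower and 0.0831% higher. Between the knockout lines, 6 CpGs were lower and 2 were higher in line 1 than in line 2, where the background was 1.07% and 0.184%. The median difference over the 691 CpGs was -3.33 points for line 1 and -2.06 points for line 2, and over all compared CpGs it was 0 for both. The sets were not matched on level: 536995 of all compared CpGs were at 0% in all 3 libraries, against 36 of the 691. The mean difference was -5.54 and -3.22 points in the locus and -4.07 and -2.13 points over all CpGs.

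**Figure D5:**
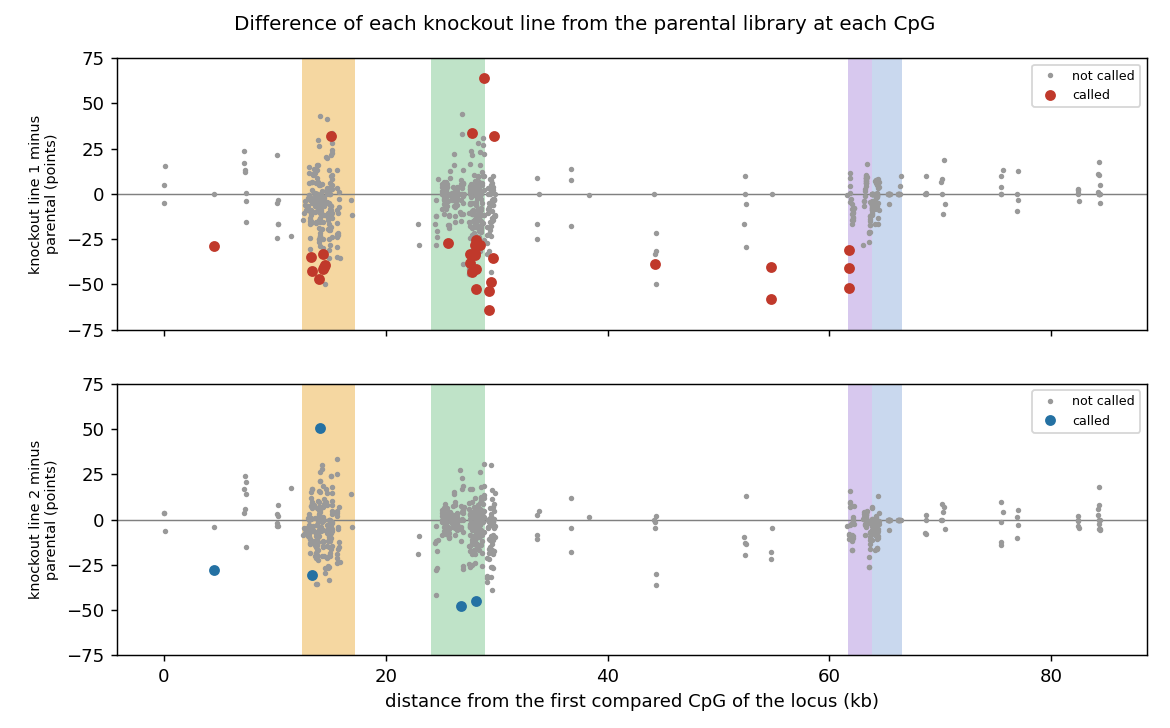
Difference in methylation level (percentage points) of line 1 (upper panel) and line 2 (lower panel) from the parental library at each CpG, against distance from the first compared CpG (kb), with called CpGs in colour. Line 1 has 33 called CpGs and line 2 has 5, and none lies in the GNAS promoter. Most parental levels in that promoter were too low to fall by the 25 points a call needs.

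Of the CpGs that fell in line 1, 7 were in the NESP55 sub-region, 11 in the antisense and XL sub-region (10 of them in the upper part), 3 in exon A/B and 8 between the sub-regions. These are 3.87%, 4.53%, 5.45% and 6.11% of the CpGs of each, around the background of 4.46%. In the flanks of the locus the share was higher, with 13 of 110 CpGs (11.8%) on the lower side and 5 of 62 (8.06%) on the upper side. The largest fall was at 57430797, just past the upper part. There 24 of 26 parental reads were methylated (92.3%, 74.9% to 99.1%). Line 1 had 11 of 39 (28.2%, 15.0% to 44.9%), and line 2 had 38 of 50 (76%, 61.8% to 86.9%). Line 1 stood apart from both other libraries at this CpG, with adjusted p of 1.66e-05 against parental and 0.00228 against line 2. The largest rise in line 1 was at 57430327, where 5 of 14 parental reads, 16 of 16 in line 1 and 12 of 18 in line 2 were methylated (adjusted p of 0.00420 in line 1 and 1 in line 2). The parental interval there was wide, from 12.8% to 64.9%.

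The 3 CpGs of exon A/B that fell in line 1 adjoin each other at its first end and were read deeply. Neighbouring CpGs can share reads, so the 3 are not separate observations. These and the CpGs named from here to the end of the next paragraph, other than the largest changes, were picked after their values were known. At 57463270, 46 of 67 parental reads were methylated (68.7%, 56.2% to 79.4%). Line 1 had 15 of 89 (16.9%, 9.75% to 26.3%), and line 2 had 62 of 107 (57.9%, 48.0% to 67.4%). The level in line 1 fell by 51.8 points (adjusted p of 9.40e-09), and line 1 minus line 2 was -41.1 points (3.04e-06). At 57463265 the level was 73.5% in parental cells, 32.6% in line 1 and 65.4% in line 2, and line 1 differed from both (adjusted p of 2.21e-05 and 0.00116). At 57463303 it was 80.9%, 50% and 72.3%, where line 1 differed from parental (0.00296) and the difference from line 2 was not called (0.0821). The next CpG, 57463325, was at 74.5%, 86.0% and 84.5% and was not called in any pair. The drop in line 1 was therefore seen at the CGs at bases 48, 53 and 86 of window 5 and not at the next one, at base 108.

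In both lines, 3 CpGs fell, 0.434% of the locus against 0.6% of all compared CpGs, and none rose, against 0.0581%. Both lines share the parental library, so this count is not from separate comparisons. At 57414867 in the NESP55 sub-region, 27 of 63 parental reads were methylated (42.9%, 30.5% to 56.0%). Line 1 had 0 of 58, which allows a level of up to 5.17%, and line 2 had 9 of 73 (12.3%, 5.80% to 22.1%). The compared CpGs on either side did not fall and were not called in any pair. In parental cells, line 1 and line 2, 57414853 was at 52.7%, 59.3% and 69.7%, and 57414884 at 54.3%, 60.7% and 63.8%. At 57429649 in the upper part, 48 of 65 parental reads (73.8%), 8 of 38 in line 1 (21.1%) and 22 of 77 in line 2 (28.6%) were methylated. At 57406069, upstream of NESP55, the counts were 59 of 60 (98.3%), 39 of 56 (69.6%) and 45 of 64 (70.3%). The lines lay close to each other at the latter 2 CpGs, where line 1 minus line 2 was -7.52 and -0.670 points. The largest fall in line 2, at 57428282, was not shared: 26 of 29 parental reads (89.7%) and 19 of 20 reads of line 1 (95%) were methylated there, against 10 of 24 in line 2 (41.7%, adjusted p of 0.0323). The rise in line 2 was at 57415626, with 11 of 24 parental reads (45.8%) and 26 of 27 in line 2 (96.3%, adjusted p of 0.0120). Line 1 stood at 16 of 18 (88.9%) at that CpG and was not called (0.105).

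By windows of 1 kb with at least 5 compared CpGs, 1 of the 22 windows of the locus was lower by 25 points or more in line 1 and none differed by as much in line 2. Over all 113178 windows, 4.14% were lower and 0.416% higher in line 1 by that measure, and 0.629% and 0.0892% in line 2. None of the 22 windows differed by as much between the lines, where 0.786% of all windows were lower and 0.116% higher in line 1. The window was 57445001 to 57446000, between the XL and A/B promoters, which had the largest fall of the knockout mean in the locus. Its 6 CpGs averaged 52.0% in parental cells, 22.7% in line 1 and 40.3% in line 2, at median depths of 31, 23 and 41 reads. Line 1 minus line 2 was -17.5 points there, larger in size than line 2 minus parental (-11.7 points). The largest rise of the knockout mean was in the window 57408001 to 57409000, upstream of NESP55, with 65.6%, 72.3% and 75.5% over 7 CpGs. At 8.29 points it was smaller than the fall.

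Read dosage, the share of a library's read counts relative to the same share in parental cells with the median chromosome set to 1, was 0.932 in line 1 and 0.996 in line 2 over the locus. It was 0.986 and 0.995 over chromosome 20. Within the locus it was 0.811 and 0.941 at the antisense and XL sub-region, 0.796 and 0.881 at the GNAS promoter and 1.10 and 1.17 at exon A/B. Its part in the methylation differences was not tested.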

How the data were processed

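Captured, bisulfite-treated DNA (TruSeq Methyl Capture EPIC) was sequenced by the authors from 3 libraries. The deposited files give counts of reads per cytosine and strand (total, in CpG context, methylated), not normalized, and a methylation fraction, which equalled methylated over context counts at every cytosine (within 1e-06). The submitters' processing notes name GRCh37 (hg19). Aligner, caller and duplicate removal are not given in the sources used here. Read counts in CpG context, a read counting at each cytosine it covers, summed to 104702738 (parental), 96987706 (line 1) and 133170621 (line 2).

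Strands were summed and CpGs with 10 or more reads in all 3 libraries were compared by a Fisher exact test tested on simulated data. Sub-region levels are unweighted means over CpGs. Intervals are Clopper-Pearson (95%), and they and the limit a 0 allows (3 reads) cover counting error only, since PCR copies are not independent molecules. Windows of 1 kb were on a fixed grid. The locus, sub-regions and tests were chosen with earlier results of these data known. Named CpGs are the deepest of each sub-region and the largest called rise and fall of each pair of libraries, and named windows those with the largest rise and fall of the knockout mean. Alternatives covered coverage, strand, thinning, thresholds, weighting, sub-region ends and leaving out each line. Tables were handled with pandas 2.3.3 and numpy 2.4.6 in Python 3.11.15, tests and intervals with numba 0.67.0 and scipy 1.17.1, and plots with matplotlib 3.10.9.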

Additional observations from a re-analysis of the deposited data

Results flagged for a closer look

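Line 1 and line 2 differed from each other at 8 CpGs of the locus by Fisher's exact test and the same call rule, which is a test of the difference between their departures from the same parental library. Line 1 was lower at 6 of them (0.868% of the locus, against 1.07% of all compared CpGs) and higher at 2 (0.289%, against 0.184%), so these shares were near the background. In exon A/B, line 1 minus line 2 was -41.1 points at 57463270 and -32.8 points at 57463265. Past the upper part of the antisense and XL sub-region, it was -47.8 points at 57430797, -31.9 points at 57430802 and 29.1 points at 57431202. Between XL and exon A/B it was -34.3 points at 57445779 and -36.1 points at 57456239. At 57428282 it was 53.3 points, where line 2 was the library that departed. At 57456239, 29 of 42 parental reads, 5 of 45 reads of line 1 and 17 of 36 of line 2 were methylated.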

How the results depend on the processing

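Among 122 values recomputed under alternatives for 13 results, 82 stayed inside 1 SD between the lines (counts: 1.5 times), and 40 moved further. With only 2 lines, a difference with either line left out stays inside 1 SD whatever the values are. Such differences among the 82 therefore say nothing about stability. The knockout mean stayed below parental in all 46 alternative values for the 4 sub-regions and the CpGs between them. All 46 use the same libraries, and over all compared CpGs the knockout mean was also below parental, with a difference of -3.10 points. A minimum of 20 reads moved the GNAS promoter to -4.66 points and left 0 CpGs higher in line 2, and pooled reads moved that promoter to -3.12 points. Medians over CpGs moved exon A/B to -7.57 points and the CpGs between to -9.10 points. With the ends moved inward by 300 bases, which keeps 34 of its 55 CpGs, exon A/B moved to -1.55 points. The forward strand alone gave -8.25 points over 12 CpGs of the antisense and XL sub-region and -0.938 points over 6 CpGs between, and 0 calls in every comparison. At the same 12 CpGs the reverse strand stood at 22.4% in parental cells, 25.01% in line 1 and 22.7% in line 2, so that the strands differed in direction there, and the cause was not tested. Thinned to the smallest depth, 2 CpGs were lower in line 2, and line 1 against line 2 gave 1 higher and 1 lower. At an adjusted Fisher p under 0.01, 3 CpGs rose and 16 fell in line 1, and 0 rose and 2 fell in line 2. By that rule, line 1 against line 2 gave 0 higher and 3 lower. At 50 points, 1 rose and 5 fell in line 1, and 1 rose and 0 fell in line 2. Line 1 against line 2 then gave 1 higher and 0 lower, and 0 fell in both. At an unadjusted Fisher p under 0.05 with the 25-point rule kept, 10 rose and 58 fell in line 1, and 3 rose and 23 fell in line 2. By that rule line 1 against line 2 gave 9 higher and 29 lower, and 1 rose and 12 fell in both. By p alone, 20 of the 691 CpGs were higher and 79 lower in line 1, and 10 higher and 42 lower in line 2. Over all 2238764 compared CpGs, p alone gave 47905 higher and 238064 lower in line 1. In line 2 it gave 36425 higher and 133699 lower. The counts under the other alternative rules were not set beside those over all compared CpGs, so they are not read as a trait of the locus. With either line left out, calls in the remaining line ran from 1 to 4 higher and from 4 to 29 lower, the larger counts without line 2, and the difference of the knockout mean ran from -6.29 to -3.94 points at NESP55, from -5.09 to -2.13 in the antisense and XL sub-region, from -6.33 to -3.63 at exon A/B, from -2.86 to -1.89 at the GNAS promoter and from -7.24 to -4.29 between them. No paired analysis was possible because only 1 parental library exists in the comparison. Differences under 25 points at single CpGs were never called by construction, the parental level has no replicate, and read copies and aligner could not be checked.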

Other observations

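A CpG at 57483947, in the highly methylated stretch past the GNAS promoter, had 0 methylated reads of 75 in the parental library, 0 of 53 in line 1 and 0 of 88 in line 2, which allows levels of up to 4%, 5.66% and 3.41%. The CpG 3 bases further, 57483950, had 71 of 74, 51 of 53 and 86 of 88 reads methylated, and the other 3 CpGs of this group of 5 lay between 92.4% and 100%. Whether Hep3B carries a CG at 57483947, or at the other isolated CpGs near 0%, was not checked. Outside the 4 sub-regions 3 CpGs had no methylated read in any library.

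The CpGs of the locus with too few reads to be compared fell most often in exon A/B (58) and at the GNAS promoter (62). Their levels, pooled over CpGs that can share reads, were 21.7% in parental cells, 15.0% in line 1 and 20.5% in line 2 at exon A/B, and 1.39%, 1.17% and 1.27% at the GNAS promoter.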
